A study of Mus musculus with 7 samples.

Results

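The genes described here are 9 transcription factors of the pancreatic β-cell, Mafa, Pdx1, Nkx6-1, Nkx2-2, Neurod1, Pax6, Isl1, Mnx1 and Rfx6. They were taken by symbol from a count table of 35013 gene symbols, and all 9 were present and passed the filter on low counts in each comparison. MafA is a basic leucine zipper protein of the large Maf family, and Pdx1, Nkx6-1, Nkx2-2, Mnx1, Isl1 and Pax6 carry a homeodomain. Neurod1 is a basic helix-loop-helix protein and Rfx6 a winged-helix protein, so these last genes belong to the same network without belonging to either family. The libraries were poly-A RNA-seq of sorted β-cells, with 1 mouse per library, from Aldh1a3 KO_db/db mice (n = 2), db/db mice (n = 2) and db/+ mice (n = 3). A db/db mouse has no working long leptin receptor and develops obesity with diabetes, whereas db/+ mice stay lean. Per the methods, the knockout animals carried the RIP-Cre(Herr) transgene, both Aldh1a3 alleles floxed (fl/fl), the tdT reporter (tdT fl/+) and the genotype Lepr db/db. Both control groups carried the same transgene and reporter with Aldh1a3 fl/+, that is one floxed allele, on Lepr db/db or Lepr db/+. All groups therefore express Cre from a rat insulin promoter, the deletion is confined to cells in which that promoter has been active, and no group without Cre was included. Mice were fasted before islet isolation. The methods give a range of adult ages and both sexes for the animals, and neither age nor sex is given per animal. Aldh1a3 encodes a retinaldehyde dehydrogenase used as a marker of dedifferentiating β-cells. The question of the comparisons was which identity factors are lower in db/db β-cells, and which of them are back at the db/+ level in the knockout.

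These factors act as a network in the mature β-cell. MafA, Pdx1 and Neurod1 bind the insulin gene promoter and drive it together in response to glucose. Nkx6-1, Nkx2-2, Pdx1 and Mnx1 keep the β-cell from taking on features of other islet cells, and Isl1 and Pax6 are needed in all islet endocrine lineages. Rfx6 acts downstream of Neurog3 during endocrine differentiation and remains expressed in adult islets. MafA appears late during maturation, and its loss is a known feature of the stressed β-cell.

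The factors differed in their pattern over the groups of mice. Mafa was at 19.2% of the db/+ level in db/db β-cells and at 99.2% of it in the knockout. Pdx1, Nkx6-1 and Isl1 were lower than in db/+ in db/db β-cells, and in the knockout they were also lower than in db/+. Neurod1 was lower in db/db and lay between the other groups in the knockout. Rfx6 was higher than in db/+ in both Lepr db/db groups. Nkx2-2, Pax6 and Mnx1 passed the test in no comparison. The comparisons of db/db and of the knockout with db/+ share the same 3 db/+ libraries, and the values of each are given side by side below. Because these are bulk libraries, fewer cells that express a factor and less RNA per cell cannot be told apart.

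Promoter sequences were in RefSeq's table (GRCm38.p6) for 8 of the 9 genes, the exception being Mafa. In the 300 bases around each start (250 before and 50 after), the homeodomain core TAAT, read on both strands, was found in 6 of 9 windows, from 5 genes (Isl1, Mnx1, Nkx2-2, Pax6 and Rfx6), against 58.0% of the 32851 promoter windows searched. The E-box letters CANNTG, the kind bound by Neurod1, were found in 7 of 9 windows against 72.3% of all windows, and TGCTGA, a core of Maf recognition elements, in 2 of 9 against 19.5%. The shares are close to those of all promoters, and a match is a description of letters only. The upstream stretches outside annotated exons are shown for Pdx1 and Isl1, which were lower in both Lepr db/db groups, and for Rfx6, which was higher in both. Capitals mark TAAT on either strand. Pdx1 is on the plus strand (chr5:147269847-147269958), Isl1 on the minus strand (chr13:116309690-116309938) and Rfx6 on the plus strand (chr10:51685268-51685517), where the RefSeq start lies inside the longer GENCODE gene.
Pdx1: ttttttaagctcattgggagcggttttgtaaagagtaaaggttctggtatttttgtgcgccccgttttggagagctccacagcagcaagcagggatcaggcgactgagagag
Isl1: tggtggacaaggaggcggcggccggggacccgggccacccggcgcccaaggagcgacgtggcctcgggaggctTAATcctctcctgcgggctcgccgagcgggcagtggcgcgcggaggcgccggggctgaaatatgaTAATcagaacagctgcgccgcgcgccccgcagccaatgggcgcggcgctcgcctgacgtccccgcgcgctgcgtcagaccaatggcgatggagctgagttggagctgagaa
Rfx6: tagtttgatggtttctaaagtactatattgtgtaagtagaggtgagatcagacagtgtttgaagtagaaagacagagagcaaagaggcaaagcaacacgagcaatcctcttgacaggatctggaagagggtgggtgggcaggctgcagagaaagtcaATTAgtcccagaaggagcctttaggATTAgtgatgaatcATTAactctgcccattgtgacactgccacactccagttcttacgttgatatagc
The Pdx1 stretch of 112 bases holds no TAAT, the Isl1 stretch of 249 bases holds 2 and the Rfx6 stretch of 250 bases holds 3.

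Total counts ran from 27496645 to 35852785 per library. Aldh1a3 was at 98.5 and 194 CPM (a gene's counts scaled to a common library size, here by the TMM method) in the db/db libraries, at 4.97 and 7.89 in the knockout, and at 0.0730 to 0.589 in db/+. The knockout libraries thus had less Aldh1a3 RNA than db/db, as labelled, and more than db/+. Insulin genes made up 21.8% to 36.1% of counts in every library. Acinar markers (22 genes) made up 10.4% of counts in knockout mouse 1 and 1.12% in knockout mouse 2, and 0.0314% or less in each of the other 5 libraries. Immediate early and stress genes (7 genes) summed to 3158 CPM in db/db mouse 1 and 1293 in db/db mouse 2, against 237 to 875 in the others. Y-linked genes gave 2911 counts in db/+ mouse 3 and 20 to 79 in the other libraries, so 1 mouse differs from the rest in sex. β-cell markers summed to at least 392240 CPM in each db/+ library and to less in every Lepr db/db library, 296360 at most. Ins1 and Ins2 made up most of that sum. Of these 5 markers, Ins1, Ins2, Ucn3 and G6pc2 were each below all of db/+ in every Lepr db/db library. Iapp was not, at 27048 and 22605 CPM in db/db, above all of db/+ (17579 to 22437). In the knockout Iapp was at 19012 and 19503 CPM. α-cell markers overlapped across the groups. δ-cell markers summed to 163 and 82.8 CPM in db/db, below every other library (368 to 2275), and the PP-cell gene Ppy was higher in the knockout (579 and 453 CPM) than elsewhere (436 at most). Ductal markers summed to 275 to 418 CPM in the 4 Lepr db/db libraries and to 179 to 194 in db/+, a sum made up mostly of Krt7 (247 to 326 against 174 to 192 CPM). Krt19, at 0.176 and 1.22 CPM in db/db, 9.36 and 0.534 in the knockout and 0.620 to 1.00 in db/+, did not separate the groups, nor did Cftr. Spp1 was at 22.3 and 89.8 CPM in db/db and 12.7 and 41.8 in the knockout, against 1.97 to 3.74 in db/+. Sox9 (0.985 and 1.02 CPM) and Muc1 (23.2 and 1.70) were higher in both knockout libraries than in any other library. Of the acinar markers, Cel, Prss2, Ctrl, Try4 and Try5 were among those at 0 in db/+ mouse 1. The part of these differences in the results for the 9 factors was not tested beyond the values without single libraries and without the acinar genes that are given below.

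**Figure D1:**
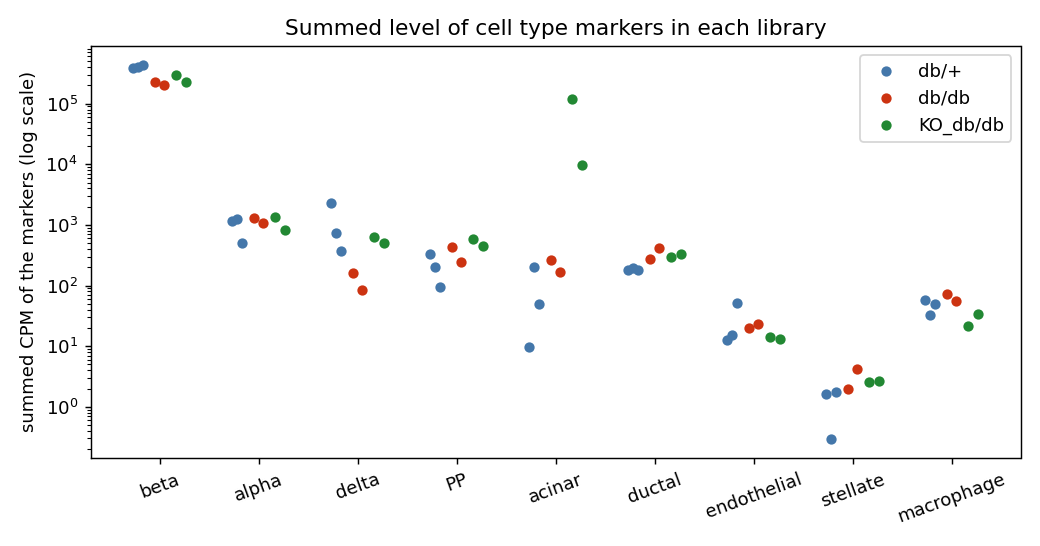
Summed CPM of cell type markers (log scale) in each library, by cell type and group, with 1 point per library. β-cell markers lead in all 7 libraries, and acinar markers reach 10.4% and 1.12% of counts in the 2 knockout libraries.

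Mafa (chr15:75745490-75748228, minus strand, GRCm38) is a gene of 1 exon. Its level was 57.7 and 92.1 CPM in the db/db libraries. In the db/+ libraries it was 414, 327 and 422 CPM. In the knockout it was 385 and 381 CPM. Both db/db libraries lay below every other library, and both knockout libraries lay inside the range of db/+. In db/db against db/+ the log2 fold change was -2.38 ± 0.24 (SE), with an edgeR quasi-likelihood adjusted p (Benjamini-Hochberg over all genes tested, as throughout) of 0.00109. That change was larger in absolute size than those of 94.3% of the 13406 genes tested. A gene is called here where this adjusted p was under 0.05, and Mafa was called with any single library left out, with log2 fold changes from -2.77 to -2.09.

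The knockout had 5.10-fold more Mafa RNA than db/db, a log2 fold change of 2.35 ± 0.26 (SE) with a 95% interval of 1.69 to 3.01. The edgeR adjusted p was 0.0538, just above the threshold of 0.05, although Mafa ranked 51 of 13486 genes by p. The test called 43 genes in all, 0.319% of those tested. DESeq2, which the study's methods name, gave Mafa an adjusted p of 6.41e-19 and called 10.03% of genes. One edgeR fit of all 7 libraries gave an adjusted p of 0.00763 and called 5.93% of genes. Over all 10 alternatives the log2 fold change ran from 2.05 to 2.73 and the adjusted p from 6.41e-19 to 0.0939, under 0.05 in 7 of them. It stayed above 0.05 with RLE scaling (0.0521), with a block on the mouse number (0.0939) and without db/db mouse 1 (0.0791). It fell under it without db/db mouse 2 (0.0275), without knockout mouse 1 (0.0465) or knockout mouse 2 (0.0262), and without the acinar, Reg and insulin genes (0.0463). The level of Mafa differed by 1.01-fold between knockout mouse 1 and mouse 2, whose acinar shares were 10.4% and 1.12%. Whether acinar RNA has a part in that level was not tested beyond these values.

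Between the knockout and db/+, the log2 fold change of Mafa was -0.01 ± 0.15 (SE) with a 95% interval of -0.37 to 0.35 and an edgeR adjusted p of 0.960.

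Pdx1 (chr5:147269959-147275848, plus strand), a homeodomain activator of insulin and of pancreas formation, was at 164, 179 and 198 CPM in db/+. It was at 111 and 93.5 CPM in db/db. In the knockout it was at 116 and 126 CPM. Every db/+ library lay above every Lepr db/db library, and the knockout libraries lay above the db/db libraries by a narrow margin. In db/db the log2 fold change from db/+ was -0.83 ± 0.13 (SE, edgeR adjusted p = 0.00426), and in the knockout it was -0.57 ± 0.12 (adjusted p = 0.01001). Between the knockout and db/db the change was 0.24 ± 0.15 (adjusted p = 0.399), with a 95% interval of -0.14 to 0.62. Without knockout mouse 1, the adjusted p of the knockout against db/+ was 0.0677.

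Nkx6-1 (chr5:101658139-101664996, minus strand), a homeodomain repressor that keeps β-cell identity, was at 446, 362 and 348 CPM in db/+. The db/db libraries had 260.05 CPM and 177 CPM. The knockout libraries had 213 and 212 CPM, between those of db/db and below all of db/+. The log2 fold change was -0.83 ± 0.20 (SE, edgeR adjusted p = 0.0180) in db/db against db/+ and -0.85 ± 0.15 (adjusted p = 0.00590) in the knockout against db/+. In db/db the call was lost without db/db mouse 2 (adjusted p = 0.0604) or without db/+ mouse 1 (0.0600), and in the knockout it held without any single library. Between the knockout and db/db, the change was -0.04 with a 95% interval of -0.60 to 0.51. Nkx6-1 thus had the widest spread between the db/db mice of the homeodomain genes, 1.47-fold.

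Isl1 (chr13:116298281-116309689, minus strand), a LIM-homeodomain factor that binds DNA together with the cofactor Ldb1, was at 75.9, 83.9 and 71.9 CPM in db/+. It was at 48.0 and 55.3 CPM in db/db and at 57.3 and 47.3 CPM in the knockout. The db/db and knockout libraries overlapped, and all 4 lay below db/+. The log2 fold change from db/+ was -0.59 ± 0.12 (SE, edgeR adjusted p = 0.0104) in db/db and -0.56 ± 0.12 (adjusted p = 0.0127) in the knockout. The latter was lost without knockout mouse 2 (adjusted p = 0.0537). The knockout differed from db/db by 0.01, with a 95% interval of -0.39 to 0.42. The cofactor gene Ldb1 went the other way in db/db, at 155 and 86.1 CPM against 50.0 to 54.4 in db/+ (log2 fold change 1.18 ± 0.23, adjusted p = 0.00827). With one library left out, that change ran from 0.69 to 1.54. In the knockout Ldb1 was at 52.4 and 69.5 CPM and was not called against db/+ (0.21 ± 0.13, adjusted p = 0.246).

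Neurod1 (chr2:79452521-79456751, minus strand), the E-box activator of insulin, was at 106, 110.0 and 123 CPM in db/+. In db/db it was at 80.0 and 71.0 CPM. In the knockout it was at 97.7 and 94.6 CPM, above both db/db libraries and below all of db/+. The fall in db/db passed the test (log2 fold change -0.59 ± 0.12, edgeR adjusted p = 0.00938) and held without any single library. The knockout differed from db/db by 0.35 ± 0.13 (unadjusted p = 0.0447, adjusted p = 0.229) and from db/+ by -0.23 ± 0.10 (adjusted p = 0.112), so it was told apart from neither group after adjustment. In GENCODE, 201 of its 2729 exon bases are shared with the gene Cerkl on the same strand, and the counting could split reads there.

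Rfx6 (chr10:51677756-51730432, plus strand) was at 51.2, 63.3 and 58.8 CPM in db/+. It was at 78.1 and 90.1 CPM in db/db and at 73.1 and 77.4 CPM in the knockout. All 4 Lepr db/db libraries lay above db/+. The log2 fold change from db/+ was 0.53 ± 0.13 (SE, edgeR adjusted p = 0.0189) in db/db and 0.39 ± 0.11 (adjusted p = 0.0321) in the knockout. In db/db the call was lost without db/db mouse 2 (adjusted p = 0.0733) or db/+ mouse 1 (0.0694). In the knockout, the least stable call among the factors, it was lost without knockout mouse 1 (0.0821), knockout mouse 2 (0.131), db/+ mouse 1 (0.0850) or db/+ mouse 3 (0.0564). The knockout differed from db/db by -0.16, with a 95% interval of -0.51 to 0.18.

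Nkx2-2 (chr2:147177546-147194243, minus strand), a homeodomain factor needed for β-cell formation, was at 111, 130.3 and 132 CPM in db/+, at 91.2 and 122 in db/db and at 124 and 131 in the knockout. The db/db group overlapped db/+ (log2 fold change -0.24 ± 0.16, edgeR adjusted p = 0.278), and so did the knockout (0.04 ± 0.11, adjusted p = 0.775). In GENCODE its exons share 278 bases with the antisense gene Nkx2-2os, and whether the counting used strand is not given in the sources used here, so reads of the antisense RNA could be included.

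Pax6 (chr2:105668900-105697364, plus strand), which carries a paired domain beside its homeodomain, was the steadiest of the 9, with 1.29-fold between its lowest and highest library. It was at 194, 199 and 186 CPM in db/+, at 155 and 178 in db/db and at 172 and 191 in the knockout. Both db/db libraries lay below db/+, but the change of -0.23 ± 0.11 did not pass the test (edgeR adjusted p = 0.158). The knockout overlapped both other groups, with log2 fold changes of 0.12 ± 0.15 from db/db (adjusted p = 0.673) and -0.08 ± 0.10 from db/+ (adjusted p = 0.535).

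Mnx1 (chr5:29473034-29478470, minus strand), a homeodomain factor with roles in β-cells and motor neurons, had the lowest level. It was at 17.8, 21.2 and 21.1 CPM in db/+, at 24.0 and 24.7 in db/db and at 17.4 and 17.5 in the knockout. The db/db libraries were the highest and the knockout libraries the lowest, with no overlap. The knockout differed from db/db by -0.48 ± 0.14 (unadjusted p = 0.0174), which did not pass adjustment (edgeR adjusted p = 0.166). The difference of db/db from db/+ was 0.27 ± 0.13 (adjusted p = 0.143).

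**Figure D2:**
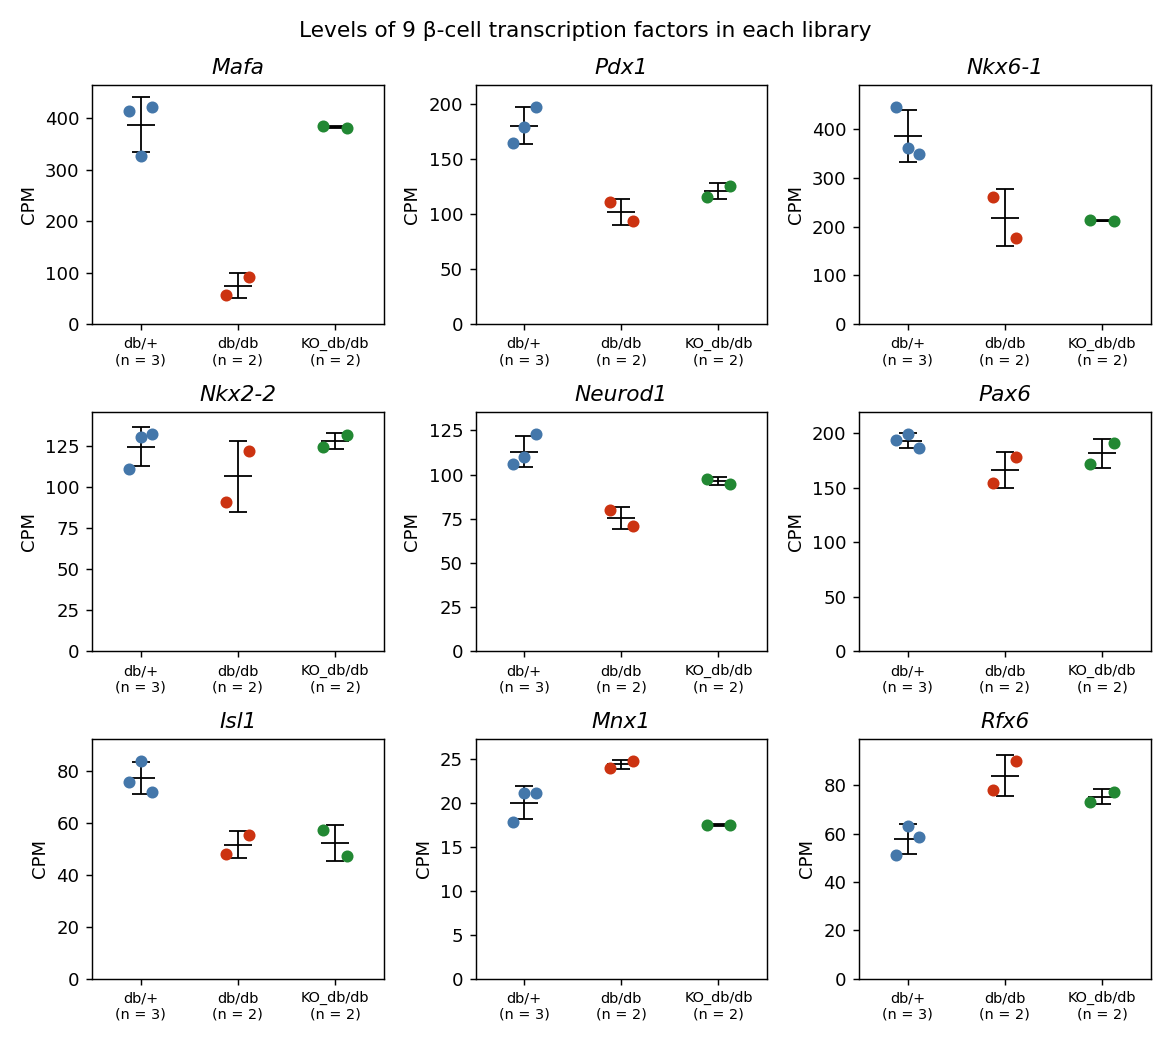
CPM of each factor in each library, with 1 point per mouse and a bar for the group mean ± SD (n = 3 db/+, 2 db/db and 2 KO_db/db), each axis starting at 0. Mafa is low only in db/db (57.7 and 92.1 CPM), whereas Pdx1, Nkx6-1 and Isl1 are below db/+ in both Lepr db/db groups and Rfx6 is above it.

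Counted over the 9 factors, 5 were called lower and 1 higher in db/db than in db/+. Over all 13406 genes tested, 18.0% were called lower and 19.9% higher. The median log2 fold change was -0.59 for the factors and 0.01 for all genes tested. Compared with db/+, the knockout had 3 called lower and 1 higher, where 17.9% of 13228 genes were lower and 20.5% higher, and the medians were -0.19 and 0.00. Compared with db/db, edgeR called 0 of the 9 in the knockout, and 3 had an unadjusted p under 0.05 (Mafa, Neurod1 and Mnx1), beside 0.319% of all genes called and 2814 of 13486 with an unadjusted p under 0.05. DESeq2 and the fit of all libraries each called 1, Mafa, beside 10.03% and 5.93% of all genes. In the edgeR fit of the knockout and db/db alone, the medians were 0.12 for the factors and -0.02 for all genes tested. The factors were picked as known β-cell genes with results of these data known, so these counts describe them only.

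**Figure D3:**
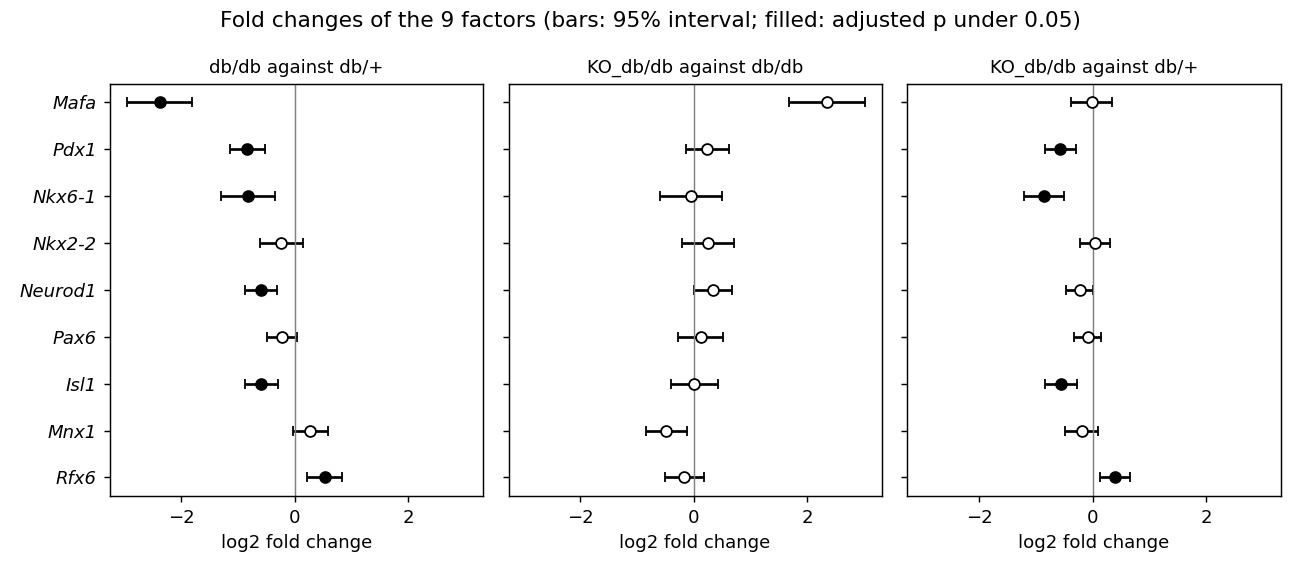
Log2 fold change of each factor in the 3 comparisons, with 95% intervals from edgeR's quasi-likelihood fit and filled points where the adjusted p was under 0.05. Mafa at -2.38 (db/db against db/+) and 2.35 (knockout against db/db) lies outside the range of the other 8, which stay between -0.85 and 0.53.

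Per kilobase of transcript, the order of the factors changed between groups. In db/+, Mafa (142 ± 19.3 CPM per kilobase, SD, n = 3) and Nkx6-1 (123 ± 16.9) were at the top with overlapping ranges, followed by Pdx1 (83.5 ± 7.72) and Nkx2-2 (58.8 ± 5.51). Pax6 (43.6 ± 1.505) and Neurod1 (41.4 ± 3.27) overlapped, and Isl1 (30.7 ± 2.44), Rfx6 (16.7 ± 1.77) and Mnx1 (8.91 ± 0.85) followed without overlap. In db/db, Nkx6-1 (69.7 ± 18.7, n = 2) and Nkx2-2 (50.3 ± 10.3) had the highest means with overlapping ranges, and Mafa was sixth (27.3 ± 8.90), a level that overlapped those of Neurod1, Rfx6 and Isl1. In the knockout, Mafa was first again (139.8 ± 0.95, n = 2), at more than the level of Nkx6-1 (67.7 ± 0.34), which it did not overlap there. Rfx6 (21.7 ± 0.88) and Isl1 (20.8 ± 2.81) overlapped in the knockout. These levels use the longest coding transcript of each gene, and another isoform would shift them.

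Ratios of counts within a library do not depend on the scaling between libraries. There were 2.52, 1.83 and 2.14 Mafa counts per Pdx1 count in db/+. The ratio was 0.521 and 0.985 in db/db. In the knockout it was 3.33 and 3.02, above every db/+ library. The same held against Nkx6-1, with 0.928, 0.904 and 1.21 in db/+, 0.222 and 0.520 in db/db, and 1.81 and 1.80 in the knockout. Against Pax6, the knockout (2.24 and 2.00) fell inside the range of db/+ (1.64 to 2.27). The knockout thus held more Mafa relative to Pdx1 and Nkx6-1 than lean β-cells did, with Mafa itself at the lean level and both of the other factors below it. Rfx6 counts per Pdx1 count were 0.298 to 0.354 in db/+, 0.706 and 0.964 in db/db, and 0.632 and 0.615 in the knockout, with no overlap between the groups.

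**Figure D4:**
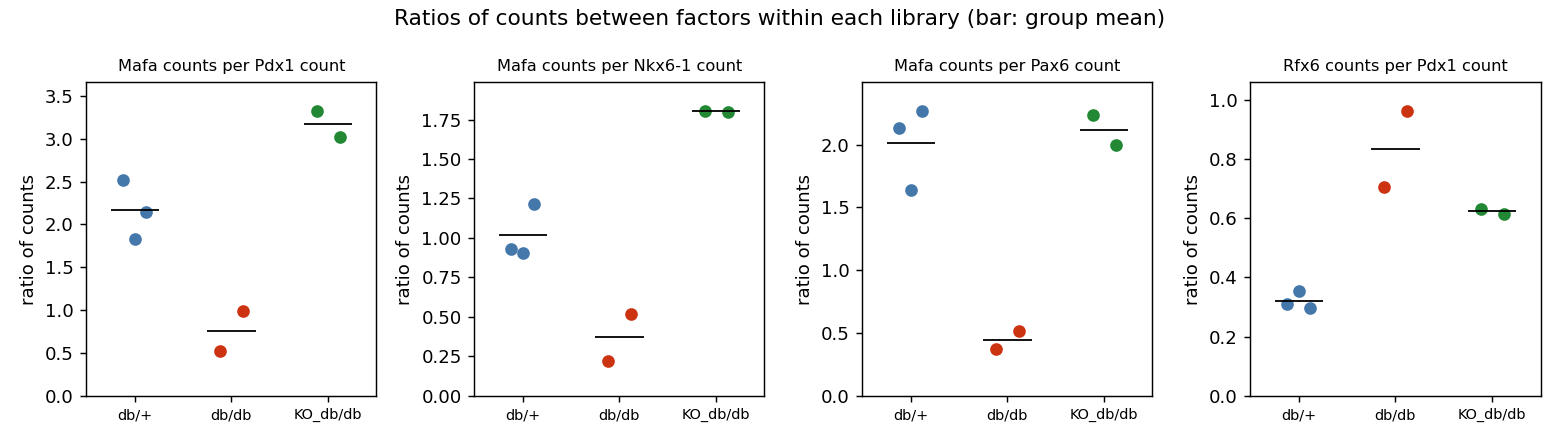
Ratios of counts between factors in each library (no unit), with 1 point per mouse and a bar for the group mean, each axis starting at 0. Mafa per Pdx1 was 3.33 and 3.02 in the knockout, above 1.83 to 2.52 in db/+ and 0.521 and 0.985 in db/db.

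As a share of all counts of the 9 factors, Mafa made up 22.2% to 27.1% in db/+, 6.38% and 10.2% in db/db, and 30.6% and 29.8% in the knockout. Nkx6-1 made up 22.3% to 28.2% in db/+, 28.8% and 19.6% in db/db, and 17.0% and 16.6% in the knockout, where the level of Mafa in the same sum was higher than in db/db. The summed level of the 9 was 1580, 1475 and 1562 CPM in db/+, 904 in each db/db library, and 1255 and 1278 in the knockout.

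Across the 7 libraries, pairs of factors differed in how closely their log2 CPM moved together. These correlations are over libraries of 3 genotypes, which the points share, and are given as descriptions. The closest pairs were Pdx1 with Neurod1 (Pearson r = 0.942) and Pdx1 with Nkx6-1 (0.866). Rfx6 ran opposite to Nkx6-1 (r = -0.948) and to Pdx1 (-0.876), and Mnx1 opposite to Mafa (-0.822).

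The genes whose pattern was most like that of Mafa, among 7644 genes with a mean of at least 10 CPM, were Pck2 (r = 0.994), Mccc2 (0.988), Pcx (0.988), Ano10 (0.988) and Ubxn6 (0.987), over 7 libraries. Pck2 is the mitochondrial phosphoenolpyruvate carboxykinase and Pcx is pyruvate carboxylase. Pcx was at 27.3 and 36.1 CPM in db/db, 148 and 143 in the knockout and 151 to 166 in db/+, and Pck2 at 37.6 and 43.3, 79.3 and 74.1, and 77.8 to 79.6. Both had the shape of Mafa, low in db/db alone. The genes most like Pdx1 were Phpt1 (0.994), Uqcrc2 (0.993), Sh3bgrl (0.989), Ugt2b34 (0.988) and Col4a1 (0.988). Col4a1, a basement membrane collagen, was at 15.4 to 19.2 CPM in db/+ and at 3.82 to 7.55 in the 4 Lepr db/db libraries. The genes most like Nkx6-1 were Slc35g2 (0.994), Xpo1 (0.994), Srsf3 (0.992), Prdx1 (0.991) and Mob1b (0.990). Those most like Isl1 were Aktip (0.992), Tspan3 (0.991), Jam3 (0.990), Aars (0.990) and Ei24 (0.989), and those most like Neurod1 were Ufsp2 (0.992), Icmt (0.990), Adk (0.986), Exd2 (0.986) and Car10 (0.985).

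For Rfx6, the most alike were Ddx58 (r = 0.997), Fez1 (0.994), Zfp644 (0.990), Ccdc107 (0.979) and Vopp1 (0.977). Ddx58 encodes the RNA sensor RIG-I and was at 9.70 to 13.6 CPM in db/+ against 17.2 to 26.1 in the 4 Lepr db/db libraries. For Mnx1 they were Mal2 (0.970), Rpl7a (0.957), Gcgr (0.951), Atp6v0e2 (0.949) and Rplp0 (0.941). Gcgr, the glucagon receptor, was at 35.4 and 21.4 CPM in db/db, 5.26 and 4.44 in the knockout and 7.21 to 12.8 in db/+. For Pax6 they were Erap1 (0.984), Avl9 (0.975), Mesd (0.968), Tmem60 (0.962) and Xrn2 (0.960). For Nkx2-2 the likeness was lowest, with Ppip5k2 (0.970), Rps6ka2 (0.954), N6amt1 (0.941), Ppp5c (0.935) and Abcc4 (0.933). Ranked by Spearman's rho instead, the 5 most alike shared 0 to 2 genes with these lists. Over 7 libraries rho is often tied, and Ddx58, Fez1 and Ccdc107 all had rho = 1 with Rfx6. The 5 taken thus depend on the order given to tied genes, so this overlap says little about likeness.

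Other factors of the islet network (25 genes, 22 tested) gave more calls upward than downward. In db/db against db/+, 9 were called higher and 1 lower, beside 19.9% and 18.0% of all genes tested, with a median log2 fold change of 0.33, beside 0.01 over all genes. The gene called lower was Insm1, a zinc finger factor of endocrine cells, which was named after its values were seen. It was at 90.9 and 122 CPM in db/db and 168 to 174 in db/+ (-0.69 ± 0.15, edgeR adjusted p = 0.0115). In the knockout Insm1 was at 163 and 154 CPM, above both db/db libraries and below all of db/+. There it was called neither against db/+ (-0.10 ± 0.09, edgeR adjusted p = 0.399) nor against db/db (0.569 ± 0.185, 0.186). Among the rises in db/db against db/+ were those of Bach2 (3.85 ± 0.35), Neurog3 (1.68 ± 0.37) and Ldb1 (1.18 ± 0.23). Neurog3, the endocrine progenitor factor upstream of Rfx6 and Neurod1, was at 1.64 to 2.56 CPM in db/+, 4.38 and 8.96 in db/db, and 11.0 and 8.76 in the knockout. Its rise in db/db was lost without db/db mouse 2 (adjusted p = 0.0793).

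Of the 22 network factors, 11 were called higher and 0 lower in the knockout than in db/+, beside 20.5% and 17.9% of all genes tested, with a median of 0.56, beside 0.00 over all genes. The unadjusted p was under 0.05 for 13 of them, and for 6450 of all 13228 genes. The calls included Bach2 (3.27 ± 0.40), Neurog3 (2.25 ± 0.25) and Glis3 (1.48 ± 0.27). Glis3 was at 168 CPM in knockout mouse 1, the library with the most acinar RNA, and at 88.5 CPM in knockout mouse 2, against 39.4 to 54.5 in db/+. Whether acinar RNA has a part in the level of Glis3 was not tested. Against db/db, edgeR called 0 of the 22 in the knockout (0.319% of all genes), with 8 at an unadjusted p under 0.05 (2814 of all 13486 genes).

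Relatives of the 9 in DNA binding (23 genes, 12 tested in db/db against db/+) gave 3 called higher and 1 lower, no larger a share than the 37.8% of all genes called in either direction. Rfx7 (1.12 ± 0.14, edgeR adjusted p = 0.00204), Rfx2 (0.78 ± 0.21, 0.0272) and the small Maf gene Maff (0.70 ± 0.17, 0.0192) rose, and Mafg fell (-0.75 ± 0.15, 0.0101). The calls of Rfx2 and Maff were lost without db/db mouse 1 (0.137 and 0.0740) or without db/+ mouse 1 (0.0773 and 0.0652) or db/+ mouse 2 (0.0773 and 0.0698), and that of Rfx2 also without db/+ mouse 3 (0.0622). Of the RFX family, Rfx6 was therefore not the one with the largest change. Of 11 relatives tested in the knockout against db/+, 4 were called higher and 0 lower (Rfx2, Rfx7, Mafk and Maff, from 0.75 to 1.38), with 5 at an unadjusted p under 0.05, beside 38.4% of all genes called in either direction. The call of Maff there was lost without knockout mouse 2 (0.127), db/+ mouse 1 (0.0678) or db/+ mouse 2 (0.0673). Against db/db, edgeR called 0 of 11 (0.319% of all genes) and 2 had an unadjusted p under 0.05, as did 2814 of all 13486 genes.

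Genes of β-cell function (19 listed, 18 in the table and tested), among them known targets of MafA, Pdx1 and Nkx6-1, were lower in most cases. In db/db against db/+, 12 were called lower and 1 higher, beside 18.0% and 19.9% of all genes tested, with a median of -0.95, beside 0.01. Slc2a2, the glucose transporter GLUT2, was at 130 and 66.3 CPM in db/db against 1063 to 1206 in db/+ (-3.55 ± 0.31, edgeR adjusted p = 0.000766). Ucn3, a maturity peptide, was at 67.7 and 85.0 against 563 to 584 (-2.93 ± 0.15, adjusted p = 0.000243). On the log2 scale, Ppp1r1a fell by 2.81 ± 0.19, and the zinc transporter gene Slc30a8 changed by -2.21 ± 0.13.

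Against db/db, only Ucn3 of the 18 was called higher in the knockout by edgeR, at 282 and 249 CPM (1.79 ± 0.18, adjusted p = 0.0459), beside 0.319% of all genes called, and 6 had an unadjusted p under 0.05, as did 2814 of all 13486 genes. That call was lost without knockout mouse 1 (0.0593) or db/db mouse 1 (0.0953). The median of the list was 0.26, beside -0.02 over all genes. Called or not, 14 of the 18 were higher and 4 lower. Slc30a8 (1.41 ± 0.19, edgeR adjusted p = 0.0739) and Ppp1r1a (2.09 ± 0.36, 0.0897) were among those higher without a call. Slc30a8 was at 516 and 412 CPM in the knockout against 166 and 182 in db/db. Ppp1r1a was at 249 and 130 CPM against 36.5 and 51.9. Against db/+, 8 of the 18 were called lower in the knockout and 2 higher, beside 17.9% and 20.5% of all genes tested, with a median of -0.74, beside 0.00. Slc2a2 was at 374 and 230 CPM in the knockout (-1.91 ± 0.24 from db/+), Ucn3 was -1.11 ± 0.13 from db/+, and G6pc2 -1.39 ± 0.38 and Ero1b -0.90 ± 0.19. G6pc2 was at 1762 and 699 CPM in the knockout, above and below both db/db libraries (1343 and 1105), and without one library its change from db/+ ran from -2.20 to -0.88. Its call was lost without knockout mouse 2 (0.0601) or any one db/+ mouse (0.0547 to 0.0731), and that of Ero1b without knockout mouse 2 (0.0522). In the knockout, Mafa at the db/+ level thus stood beside 8 function genes called below that level. Slc30a8 was among them (-0.78 ± 0.16 from db/+, edgeR adjusted p = 0.0105), and Ppp1r1a was not (-0.70 ± 0.26, 0.0757).

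**Figure D5:**
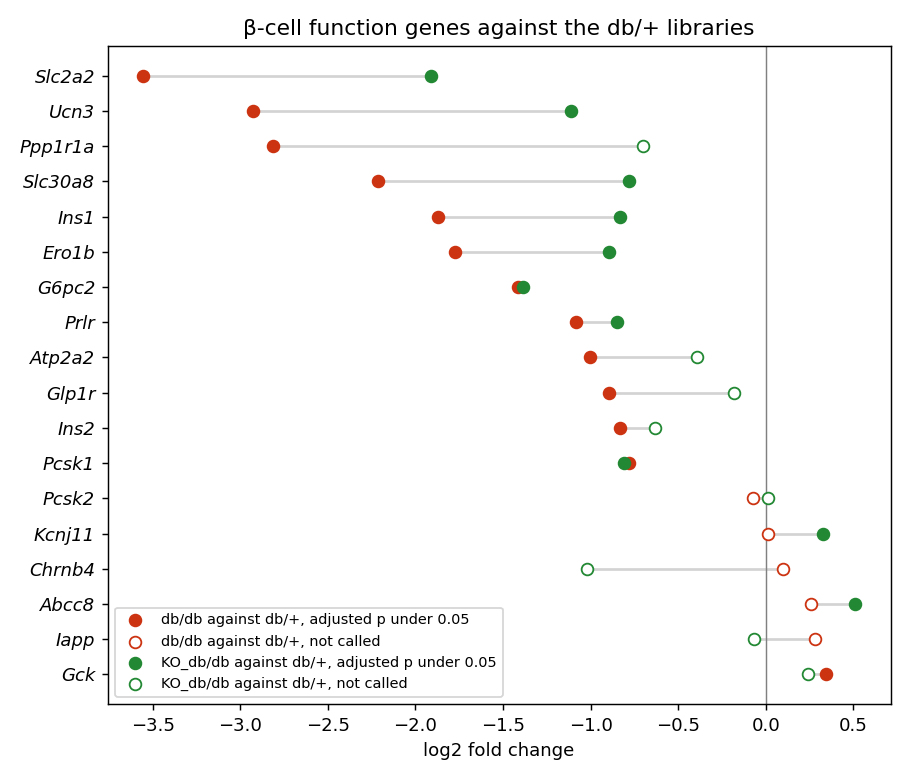
Log2 fold change against db/+ of 18 β-cell function genes in db/db (red) and the knockout (green), filled where edgeR's adjusted p was under 0.05. Slc2a2 was at -3.55 in db/db and -1.91 in the knockout, and Ucn3 at -2.93 and -1.11. Between the knockout and db/db, Ucn3 was called and Slc2a2 was not (1.62 ± 0.40, edgeR adjusted p = 0.134). G6pc2 was at -1.41 and -1.39, the latter a mean of knockout libraries that differed 2.52-fold.

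The list of factors of other lineages held 12 genes. In db/db against db/+, 0 of 6 tested were called by edgeR, with 1 at an unadjusted p under 0.05, beside 37.8% of all genes called and 6464 of 13406 under 0.05. Against db/db, 0 of 9 were called in the knockout, with 3 under 0.05, beside 0.319% of all genes called and 2814 of 13486 under 0.05. Against db/+, 3 of 8 were called higher in the knockout, beside 20.5% of all genes. Nr5a2, a factor of acinar cells, had 62 and 28 counts in the knockout, 2 and 12 in db/db and 0 to 4 in db/+, and was highest in the library with the highest acinar share. Whether acinar RNA has a part in the counts of Nr5a2 was not tested. The study reported raised NR5A2 in sorted β-cells of the knockout. By staining, it also found more β-cells with NR5A2 there than in db/db. Irx2, an α-cell factor, was at 3.53 and 3.45 CPM in the knockout, at 4.02 and 2.65 in db/db and at 0.935 to 2.23 in db/+. The calls of Nr5a2 and Irx2 were lost without knockout mouse 1 (adjusted p = 0.138 and 0.146), and that of Irx2 also without knockout mouse 2 (0.130), db/+ mouse 1 (0.128) or db/+ mouse 3 (0.0923).

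Progenitor and dedifferentiation genes (9 genes) gave 6 called higher and 1 lower of 8 tested in db/db against db/+, beside 19.9% and 18.0% of all genes. Cck was at 55.0 and 19.1 CPM in db/db, 0.123 and 1.65 in the knockout and 0.246 or less in db/+, and Gast at 3.20 and 3.73, 0.493 and 0.656, and 0.164 to 0.485. Against db/db, only Aldh1a3, the deleted gene, was called in the knockout (-4.50 ± 0.44, edgeR adjusted p = 0.0445), beside 0.319% of all genes, and this was lost without db/db mouse 1 (0.0581). Against db/+, the knockout had 3 of 8 called higher, Aldh1a3, Mycl and Neurog3, beside 20.5% of all genes. Mycl had 32 and 53 counts in the knockout, 12 and 91 in db/db and 2 to 7 in db/+, and its call was lost without knockout mouse 1 (0.0571) or knockout mouse 2 (0.0597). In db/db against db/+ its call was lost without db/db mouse 2 (0.521) or any one db/+ mouse (0.0740 to 0.106). In db/db, Aldh1a3 had 1.71 and 2.10 counts for each Mafa count, and in the knockout 0.0129 and 0.0207.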

How the data were processed

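Poly-A RNA-seq of sorted β-cells gave 7 libraries, 1 per mouse, which were grouped by the genotype and mouse number in their labels. The authors deposited 1 table of estimated counts per gene from kallisto 0.44.0 (after bcl2fastq 2.19, per the labels) on GRCm38, already whole numbers and not normalized. The annotation release and strandedness are not given in the sources used here. Total counts ran from 27496645 to 35852785, and replicates of a group differed by more than sampling noise. One library per mouse means that p-values rest on the spread between these mice. For each gene edgeR also draws on the spread of the other genes, so no p-value rests on that gene's own spread alone.

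From the deposited counts, pairs of groups were fitted separately with edgeR 4.0.16 in R 4.3.3 (filterByExpr with a minimum count of 10, TMM, quasi-likelihood test, Benjamini-Hochberg over all genes tested, threshold 0.05). CPM used TMM factors from the 7 libraries together, and log2 CPM for likeness used a prior count of 2. Intervals are 95% from the t quantile with the fit's degrees of freedom. Likeness was ranked by Pearson's r over 7 libraries, among genes with a mean of at least 10 CPM, predicted genes and pseudogenes left out, with 5 genes named per factor. From each gene list, up to 4 called genes with the largest change in each comparison are named, and further genes are given where a count turns on them. Some genes that this rule names are not reported here. The 9 factors and the lists were chosen with earlier results of these data known. Alternatives were RLE scaling, DESeq2 1.42.0, no filter, one fit of all libraries, a block on the mouse number, removal of acinar, Reg and insulin genes, a threshold of 0.01 and leaving out each library. Fits were tested on simulated data. Coordinates and lengths come from GENCODE M21 (GRCm38), which matched 34222 symbols and all 9 factors, and promoters from RefSeq (GRCm38.p6).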

Additional observations from a re-analysis of the deposited data

How the results depend on the processing

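In db/db against db/+, 6 of the 9 factors were called, 4 to 6 with one library left out, and 3 at an adjusted p under 0.01. Against db/db, 0 were called in the knockout, and 1 (Mafa) with DESeq2, without the filter, in one fit of all libraries and without the acinar, Reg and insulin genes, and 0 to 1 with one library left out. Without db/db mouse 1, edgeR called 0 of 14163 genes, although 1826 had an unadjusted p under 0.05. Against db/+, 4 were called, 2 to 4 with one library left out, and 1 at an adjusted p under 0.01. The cause of these differences was not tested, except that the threshold of 0.01 is stricter by construction.

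Directions reversed only among small changes. Between the knockout and db/+, the log2 fold change of Mafa was 0.002 with RLE scaling, 0.065 with the replicate block, and -0.122 to 0.056 with one library left out, and that of Nkx2-2 was -0.033 to 0.091. Between the knockout and db/db, leaving out one library gave -0.296 to 0.258 for Nkx6-1 and -0.126 to 0.153 for Isl1. Other scalings kept the direction of each called factor, and the median of all genes moved by less than 0.1 on the log2 scale.

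Over all genes, the knockout against db/db gave 43 calls, 1396 with DESeq2, 1570 without the filter, 818 in one fit of all libraries, 22 with the replicate block and 0 to 225 with one library left out. The other comparisons gave 5069 and 5081 calls, and 3331 to 4394 and 3060 to 4725 with one library left out. With the block on the mouse number, these comparisons gave 4516 and 3786 calls. The block left 6, 0 and 3 factors called in db/db against db/+, the knockout against db/db and the knockout against db/+, the one lost being Rfx6 in the knockout against db/+ (adjusted p = 0.0557). Among the named list genes, the block also ended the calls of Ucn3 in the knockout against db/db (0.0958), of Ero1b (0.0569), Nr5a2 (0.0591), Irx2 (0.108) and Mycl (0.0509) in the knockout against db/+, and of Rfx2 (0.0766) and Mycl (0.0998) in db/db against db/+. The deviations of same-numbered libraries from their group means correlated at -0.07 between knockout and db/db, -0.17 and -0.18 between knockout and db/+, and 0.14 and 0.11 between db/db and db/+. With 2 libraries in a group the crossed pairs mirror these values, so the check settles little, and no source ties the numbers to a shared litter, batch or day, so the mice were not treated as paired. Where a group was left with 1 library, that library is assumed to vary like the other group. The groups held 2 or 3 mice, and the factor with the fewest counts, Mnx1, had 424 to 1035 per library. Whether group size or depth limits the precision more was not tested.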
